A study of Mus musculus with 4 samples.

Results

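The endothelial identity transcription factors are 10 genes, chosen by name, of 32285 genes counted: the SoxF factors Sox17, Sox7 and Sox18, the ETS factors Erg and Fli1, the Krüppel-like factors Klf2 and Klf4, and Foxf1, Nr2f2 and Tbx2. They were measured by single-nucleus RNA-seq in the lungs of 2 WT mice (C57/BL6J) and 2 VEcad-TRF2DN-Tg mice (Tg, on the same background per the study), all 8 to 9 weeks old, with 1 library per mouse. In Tg mice, endothelial cells (ECs) carry a dominant-negative form of the telomere-binding protein TRF2 driven by the VE-cadherin promoter, and the study describes the lungs of both genotypes as taken after chronic hypoxia, which the labels do not state. The question was how the level of each factor is distributed over the lung's cell classes and whether it differs between the genotypes. The study states that Tg mice were kept heterozygous by crossing to WT C57/BL6J mice. The labels do not say how the mice were bred, housed or processed together, so that p-values measure only the spread between these libraries.

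An EC keeps its identity through a small network of transcription factors. ETS factors bind near many of the genes that ECs use, SoxF factors act beside them, Klf2 and Klf4 respond to blood flow, and Nr2f2 (COUP-TFII) maintains venous and lymphatic fate. Foxf1 is a factor of the lung's capillaries and mesenchyme, and Tbx2 is a T-box factor of lung mesenchyme.

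Each transcript was counted once by its unique molecular identifier (UMI), and levels are given as CPM, the UMIs of a gene scaled to the summed UMIs of a class in a mouse. Of 134745 barcodes with at least 1500 UMIs, 49489 were kept as nuclei of a named class, and 3594 of these were endothelial-like (831 and 585 from WT, 1018 and 1160 from Tg), with all 14 EC markers above the other nuclei. The 10 factors took no part in clustering or naming, and "-like" applies to every class name. The endothelial-like nuclei fell into general capillary (2410 nuclei), aerocyte (558), venous (482) and arterial (144) groups, the last with 12 to 65 nuclei per mouse. Only 4 of 7 general capillary markers stood above the other ECs in the group of that name, as did 4 of 10 arterial markers. At a finer subtype resolution of 0.5, an unnamed cluster of 1334 nuclei with 1 of these 7 markers, led by Fer1l6, Sema3a and Pkp2, stood apart from 1076 nuclei that kept the general capillary name. No smooth muscle group could be named. Introns were counted, so that a level depends on the length of the gene and levels of different genes are not compared.

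Free RNA was heavy and differed between the genotypes. Barcodes of 300 to 800 UMIs served as empty droplets, and free RNA was estimated at 52.5% and 56.8% of the UMIs of WT and 39.6% and 45.0% of those of Tg endothelial-like nuclei. Of the barcodes with at least 1500 UMIs, 53.8% and 57.1% in WT lay in clusters like the empty droplets, against 2.71% in the first and 22.9% in the second Tg mouse, and these were set aside. The first Tg mouse thus stood apart, and each gene named below as passing in endothelial-like nuclei as a whole is also given without it; 1.45% of genes then passed there. Nuclei with RNA of a second lineage, which were set aside, made up 19.6% and 40.6% of the WT and 49.3% and 56.6% of the Tg endothelial clusters. The named nuclei of any 2 mice shared 20 to 82 barcodes. Mouse Terf2 stood at 53.8 and 54.0 CPM in WT and 36.8 and 47.4 CPM in Tg endothelial-like nuclei, and at 40.1 and 50.5 CPM in WT and 21.8 and 31.8 CPM in Tg empty droplets. The transgene was not measured as a gene of its own, so that the genotype was not checked. Cdh5, whose promoter drives the transgene, stood at 157 and 187 CPM in WT and 311 and 232 CPM in Tg nuclei, and at 45.7 and 37.4 CPM in WT and 74.1 and 69.3 CPM in Tg empty droplets. The part of free RNA and mixed nuclei in the results was not tested beyond the values given beside them.

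Sox7 and Klf4, 2 of the 10 factors, were higher in Tg endothelial-like nuclei at an adjusted p under 0.05 (edgeR's quasi-likelihood test, Benjamini-Hochberg over 12900 genes), and the other 8 did not pass. Among all genes tested, 14.6% passed, 9.84% as higher and 4.81% as lower in Tg, so that 2 of 10 is near the background. The median difference of the 10 was 0.15 on the log2 scale, against 0.02 for all genes.

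**Figure D1:**
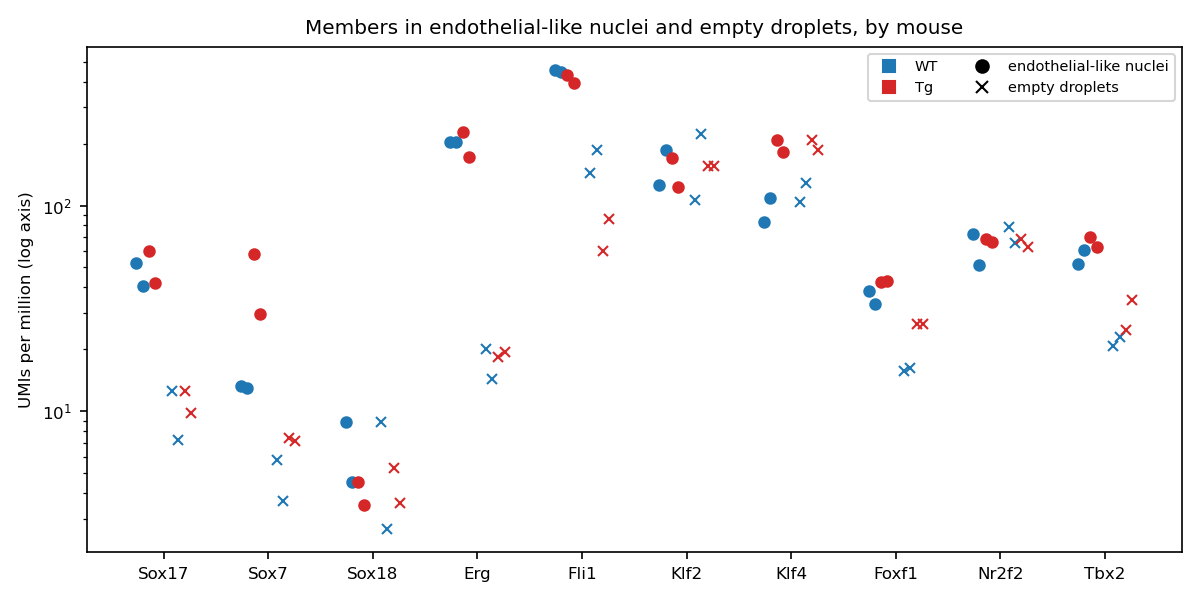
Level of each factor (CPM, log axis) in endothelial-like nuclei (circles) and empty droplets (crosses) of 2 WT (blue) and 2 Tg mice (red). Erg in nuclei lies between 172 and 227, above its empty droplets in every mouse. Klf4 in nuclei lies at 0.80 to 1.01 times its empty droplets. Different genes are not compared.

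Among the SoxF factors, Sox7 (chromosome 14, 63943673 to 63950732, + strand, mm10), which acts in early vascular development, had 30 and 23 UMIs in WT and 128 and 85 UMIs in Tg endothelial-like nuclei. Its level was 13.2 and 12.9 CPM in WT and 58.2 and 29.6 CPM in Tg, with no overlap and the first Tg mouse highest. The difference was 1.77 on the log2 scale (SE 0.39, adjusted p = 0.027, edgeR, n = 2 and 2).

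The call was lost without the first Tg mouse, where the difference was 1.17 (adjusted p = 0.15, edgeR). It was also lost with free RNA subtracted (1.57, adjusted p = 0.13), with mixed nuclei kept (1.43, adjusted p = 0.084), with nuclei thinned to 1500 UMIs (1.56, adjusted p = 0.073) and with classes taken from marker UMIs alone (1.51, adjusted p = 0.061), all by edgeR. In empty droplets Sox7 stood at 5.76 and 3.64 CPM in WT and 7.38 and 7.18 CPM in Tg, a log2 difference of 0.92 (SE 0.41) that did not pass (adjusted p = 0.14, edgeR). The difference in nuclei exceeded that in empty droplets by 1.04 (SE 0.39), which did not pass either (adjusted p = 0.12, edgeR's interaction of class and genotype, by which 5.72% of 14097 genes passed).

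In the general capillary group Sox7 stood at 11.3 and 15.5 CPM in WT and 58.5 and 35.4 CPM in Tg, a log2 difference of 1.86 (SE 0.38, adjusted p = 0.017, edgeR), where 9.98% of genes passed as higher. Without the first Tg mouse it was 1.42 (adjusted p = 0.058, edgeR), and without the first WT mouse 1.66 (adjusted p = 0.075, edgeR). It did not pass with free RNA subtracted (1.67, adjusted p = 0.14), mixed nuclei kept (1.43, adjusted p = 0.072), classes by marker UMIs alone (1.44, adjusted p = 0.055), nuclei of at least 3000 UMIs (1.69, adjusted p = 0.073) or a subtype resolution of 1 (1.61, adjusted p = 0.079) either, by edgeR. At a resolution of 0.5, where 1076 nuclei carried the general capillary name, it passed (1.83, adjusted p = 0.016, edgeR). In the other endothelial groups Sox7 had too few UMIs for the test, with 4 and 2 in WT and 14 and 10 in Tg aerocytes, 10 and 1 in WT and 27 and 6 in Tg venous nuclei, and 0 in WT and 11 and 3 in Tg arterial nuclei. Lymphatic nuclei had 3 or 4 UMIs per mouse, or 9.27 to 15.2 CPM.

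Outside the endothelium Sox7 could be tested in alveolar macrophage and alveolar type 2 nuclei, classes named here after their values were seen, where it lay below the empty droplets in every mouse. In alveolar macrophages it stood at 0.728 and 1.37 CPM in WT and 3.12 and 4.06 CPM in Tg, without overlap, a log2 difference of 1.63 (SE 0.49) that did not pass (adjusted p = 0.082, edgeR). In alveolar type 2 nuclei it was at 2.22 and 2.05 CPM in WT and 3.41 and 4.08 CPM in Tg, again without overlap, a difference of 0.85 (SE 0.34) that did not pass (adjusted p = 0.13, edgeR).

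With every nucleus thinned to 1500 UMIs, a UMI of Sox7 was found in 2.29% and 1.54% of WT and 8.15% and 3.36% of Tg endothelial-like nuclei. The exact 95% binomial intervals, which cover counting error only, were 1.38% to 3.55% and 0.706% to 2.90% in WT and 6.55% to 10.01% and 2.40% to 4.57% in Tg. At full depth (median UMIs 2425 and 2643 in WT, 1968 and 2215 in Tg) the shares were 3.13% and 3.59% in WT and 11.0% and 6.72% in Tg. In ciliated-like nuclei, an epithelium that should lack Sox7 (median UMIs 2972 to 3673.5), the thinned share was at most 0.44%.

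Sox17 (chromosome 1, 4490931 to 4497354, − strand), a factor of arterial fate, stood at 52.4 and 40.5 CPM in WT and 60.0 and 41.8 CPM in Tg endothelial-like nuclei, 4.16 to 5.56 times the empty droplets. The genotypes overlapped, with a log2 difference of 0.16 (SE 0.28, adjusted p = 0.73, edgeR). Its level was higher in the arterial group (62.5 to 93.3 CPM, from 3 to 11 UMIs per mouse) and in general capillaries (50.9 to 81.6 CPM) than in any mouse's aerocytes (10.9 to 20.6 CPM) or venous nuclei (0 to 25.2 CPM). The arterial and general capillary ranges overlapped, as did those of aerocytes and venous nuclei.

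Sox18 (chromosome 2, 181669836 to 181671640, − strand), known for its part in lymphatic development, had 20 and 8 UMIs in WT and 10 and 10 in Tg endothelial-like nuclei. Its 3.48 to 8.81 CPM exceeded the empty droplets in only 1 of 4 mice. The log2 difference of −0.74 (SE 0.52) did not pass (adjusted p = 0.35, edgeR).

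**Figure D2:**
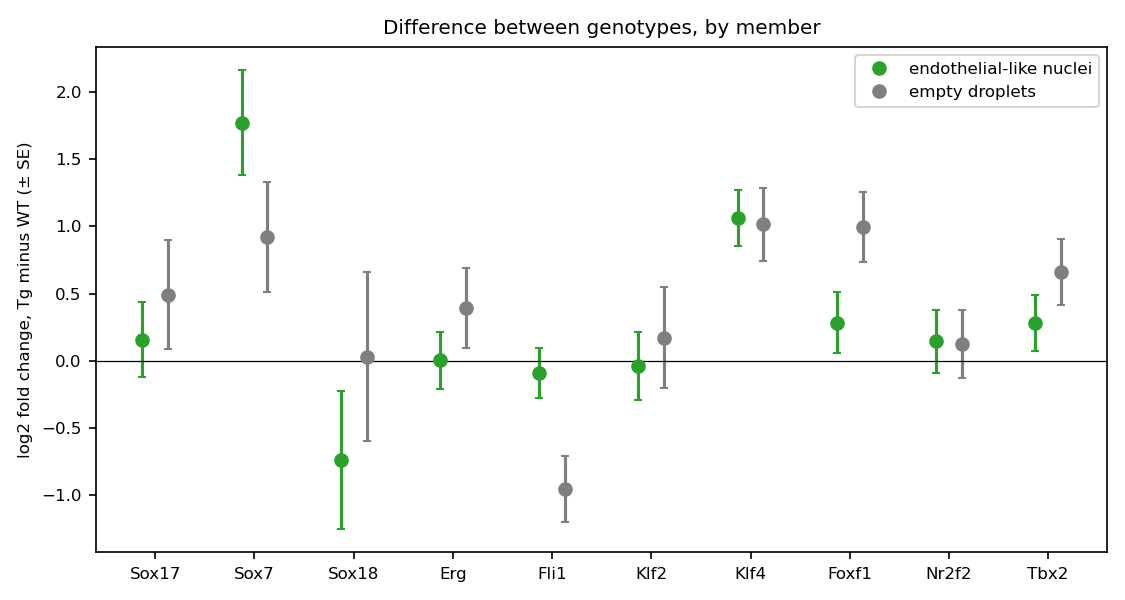
Difference between the genotypes for each factor (log2, Tg minus WT, bars are SE) in endothelial-like nuclei (green) and empty droplets (grey), 2 mice per genotype. Klf4 lies at 1.06 in nuclei and 1.01 in empty droplets, and Fli1 at −0.09 in nuclei and −0.96 in empty droplets.

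Neither ETS factor passed the test between genotypes in endothelial-like nuclei. Erg (chromosome 16, 95359169 to 95586593, − strand), which maintains the endothelial program in adult vessels, stood at 204 and 205 CPM in WT and 227 and 172 CPM in Tg, a log2 difference of 0.00 (SE 0.21, adjusted p = 1.00, edgeR). It was 8.83 to 14.2 times its empty droplets. General capillaries had 163 to 216 CPM, aerocytes 188 to 248, the arterial group 136 to 254, the venous group 207 to 263 and lymphatic nuclei 188 to 248 CPM, ranges that all overlap. Outside these endothelial groups Erg exceeded the empty droplets of all 4 mice in no class.

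A UMI of Erg was found, thinned, in 20.5% to 27.0% of endothelial-like and 0.37% to 1.17% of ciliated-like nuclei per mouse. At full depth the endothelial-like shares were 30.8% to 37.6%.

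Fli1 (chromosome 9, 32422204 to 32542861, − strand), an ETS factor of both endothelium and blood cells, stood at 456 and 444 CPM in WT and 433 and 393 CPM in Tg endothelial-like nuclei. The genotypes did not overlap, but the log2 difference of −0.09 (SE 0.19) did not pass (adjusted p = 0.77, edgeR). By the mean over the 4 mice, B nuclei (621 to 785 CPM) and venous nuclei (626 to 703 CPM) were highest, and their ranges overlapped, while the highest single value was that of monocyte or interstitial macrophage nuclei in the second WT mouse (836 CPM). Every value of general capillaries (390 to 460 CPM), lymphatic nuclei (372 to 460 CPM) and aerocytes (203 to 279 CPM) lay below them. Fli1 also exceeded the empty droplets of all 4 mice in T or NK (500 to 586 CPM), monocyte or interstitial macrophage (318 to 836 CPM), arterial (300 to 516 CPM), dendritic (270 to 384 CPM), alveolar macrophage (229 to 312 CPM) and pericyte nuclei (247 to 293 CPM). The pericyte group held 41 to 75 nuclei per mouse. Before mixed nuclei were set aside, its clusters also showed EC markers, a share of 0.71 in the first WT and 0.43 in the second WT and second Tg mouse. In the first Tg mouse no other lineage exceeded a share of 0.22.

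In empty droplets Fli1 was at 144 and 186 CPM in WT and 60.2 and 86.2 CPM in Tg, a log2 difference of −0.96 (SE 0.24, adjusted p = 0.034, edgeR). There 25.6% of genes passed, 14.5% as higher and 11.0% as lower. Without the first Tg mouse the difference was −0.84 (adjusted p = 0.24, edgeR), and it did not pass without the second Tg mouse (−1.08, adjusted p = 0.091, edgeR) or the second WT mouse (−0.77, adjusted p = 0.093, edgeR) either. The difference in endothelial-like nuclei was 0.92 above that in empty droplets (SE 0.20, adjusted p = 0.0028, edgeR's interaction). Outside the blood endothelium, classes above the empty droplets in every mouse ran from −0.26 in alveolar macrophage to 0.43 in dendritic nuclei. Alveolar fibroblasts were at −0.45, and none of these passed by edgeR. In 4 classes Fli1 lay below the empty droplets in every mouse, and these are named after their values were seen. The log2 difference was −1.28 in ciliated (adjusted p = 0.055), −1.12 in alveolar type 2 (adjusted p = 0.051), −0.92 in mesothelial (adjusted p = 0.15) and −0.74 in alveolar type 1 nuclei (adjusted p = 0.085), none past the threshold by edgeR.

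**Figure D3:**
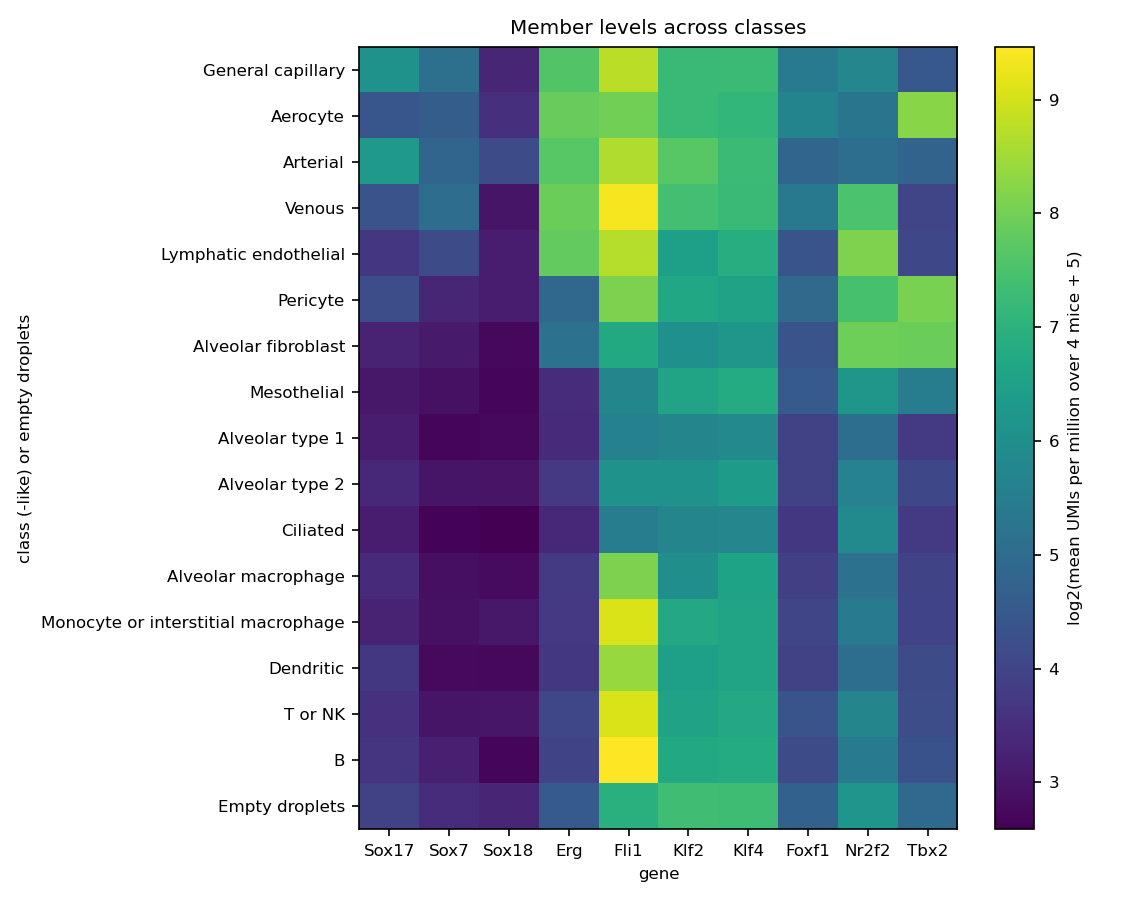
Mean level over 4 mice of each factor (columns) by class (rows), as log2 of CPM plus 5 on the color scale, with empty droplets in the last row. Tbx2 stands out in aerocytes (299 CPM), pericytes (266 CPM) and alveolar fibroblasts (236 CPM).

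The Krüppel-like factors are shown with their promoters because Klf4 passed the test between genotypes and Klf2 did not, although their levels over the classes were alike (r = 0.93 over 16 classes and groups, no test). In none of these 16 did either factor exceed the empty droplets in all 4 mice. These levels include free RNA, and its part in r was not tested. A level at or below the empty droplets does not show that a class lacks the factor. Whether gene length bears on the ratio to empty droplets was not tested. Each window runs from 250 bases before to 50 after the RefSeq start of the gene (GRCm38.p6, on the strand of the gene), with capitals where CACCC or GGAAG occurs on either strand. CACCC, part of the core that Krüppel-like factors bind, occurs in 57.5% of 32851 such windows and GGAAG, an ETS core, in 71.4%. Such a match is a description. Windows were available for 4 of the 10 factors, and motifs were marked only in those of Klf2 and Klf4.
Klf2 promoter, chr8:72318812-72319111 (+): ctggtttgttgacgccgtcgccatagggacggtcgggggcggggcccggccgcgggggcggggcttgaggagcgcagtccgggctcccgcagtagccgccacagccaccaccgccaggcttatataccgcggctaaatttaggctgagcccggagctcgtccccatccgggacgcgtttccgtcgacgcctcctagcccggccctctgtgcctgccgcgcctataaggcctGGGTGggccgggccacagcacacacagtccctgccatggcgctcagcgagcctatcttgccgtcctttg
Klf4 promoter, chr4:55532426-55532725 (−): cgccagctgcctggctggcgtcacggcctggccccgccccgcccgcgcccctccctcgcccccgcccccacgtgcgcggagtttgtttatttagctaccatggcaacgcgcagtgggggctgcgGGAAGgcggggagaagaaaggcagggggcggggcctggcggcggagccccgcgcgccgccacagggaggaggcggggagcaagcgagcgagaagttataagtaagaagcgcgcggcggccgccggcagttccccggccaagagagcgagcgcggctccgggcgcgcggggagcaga

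Klf4 (chromosome 4, 55527143 to 55532466, − strand), a flow-responsive factor of quiescent endothelium, stood at 83.3 and 109 CPM in WT and 209 and 181 CPM in Tg endothelial-like nuclei. The genotypes did not overlap, and the log2 difference was 1.06 (SE 0.21, adjusted p = 0.018, edgeR). Without the first Tg mouse it was 0.92 (adjusted p = 0.13), with mixed nuclei kept 0.86 (adjusted p = 0.059) and in nuclei of at least 3000 UMIs 1.03 (adjusted p = 0.092), all by edgeR.

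In empty droplets Klf4 was at 104 and 129 CPM in WT and 208 and 186 CPM in Tg, a log2 difference of 1.01 (SE 0.27, adjusted p = 0.040, edgeR). Without the first Tg mouse it was 0.76 (adjusted p = 0.24, edgeR), and it did not pass without the second Tg mouse (1.21, adjusted p = 0.066, edgeR) or the first WT mouse (0.86, adjusted p = 0.15, edgeR) either. The level in endothelial-like nuclei was 0.80 to 1.01 times that in empty droplets, and the changes in both differed by 0.10 (SE 0.19, adjusted p = 0.86, edgeR's interaction). With free RNA subtracted, the difference in endothelial-like nuclei was 1.42 (adjusted p = 0.046, edgeR).

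Klf4 passed as higher in Tg in 10 of the 13 classes tested, endothelial-like nuclei among them, and in 3 of 4 endothelial groups. The other classes were alveolar fibroblast (log2 difference 1.36, with 7.76% of all genes passing as higher there), alveolar type 1 (1.33, 10.3%), B (1.23, 6.11%), alveolar type 2 (1.18, 10.2%), lymphatic (1.15, 8.71%), ciliated (1.14, 4.02%), alveolar macrophage (1.12, 7.57%), T or NK (1.05, 7.05%) and mesothelial nuclei (1.00, 8.56%). The endothelial groups were venous (1.25, 8.17%), aerocyte (1.14, 7.69%) and general capillary nuclei (1.10, 9.98%). In every class tested outside the blood endothelium, and in venous and aerocyte nuclei, Klf4 lay below the empty droplets in all 4 mice. In alveolar type 1 nuclei, for example, it stood at 23.1 and 37.8 CPM in WT and 70.2 and 77.1 CPM in Tg. It did not pass in arterial (1.17, adjusted p = 0.27, 6.57%), monocyte or interstitial macrophage (1.33, adjusted p = 0.061, 3.02%), pericyte (0.91, adjusted p = 0.24, 8.1%) or dendritic nuclei (0.55, adjusted p = 0.35, 5.82%), by edgeR.

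These counts come from the same 4 mice and are not independent. Over classes and endothelial groups, 2 of 17 tests of Klf4 passed without the first Tg mouse, where 0% to 5.18% of all genes passed as higher, and 6 of 17 without the first WT mouse, where 0% to 9.77% did. The log2 differences were then 0.50 to 1.29 and 0.50 to 1.27. With free RNA subtracted, 5 of 12 passed, where 0.461% to 2.67% of all genes passed as higher, and in 3 of the 5, alveolar fibroblast, T or NK and B nuclei, the subtraction left 0 UMIs in both WT mice. With DESeq2, Klf4 did not pass in aerocytes (adjusted p = 0.28) or venous nuclei (adjusted p = 0.25).

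A UMI of Klf4 was found, thinned, in 10.5% and 15.04% of WT and 25.1% and 24.7% of Tg endothelial-like nuclei, with exact 95% binomial intervals of 8.47% to 12.8% and 12.2% to 18.2% in WT and 22.5% to 27.9% and 22.2% to 27.2% in Tg. At full depth the shares were 18.8% and 26.5% in WT and 33.3% and 36.1% in Tg. In ciliated-like nuclei the thinned shares were 5.12% and 8.89% in WT and 11.7% and 10.9% in Tg, below those of the endothelial-like nuclei of the same mouse.

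**Figure D4:**
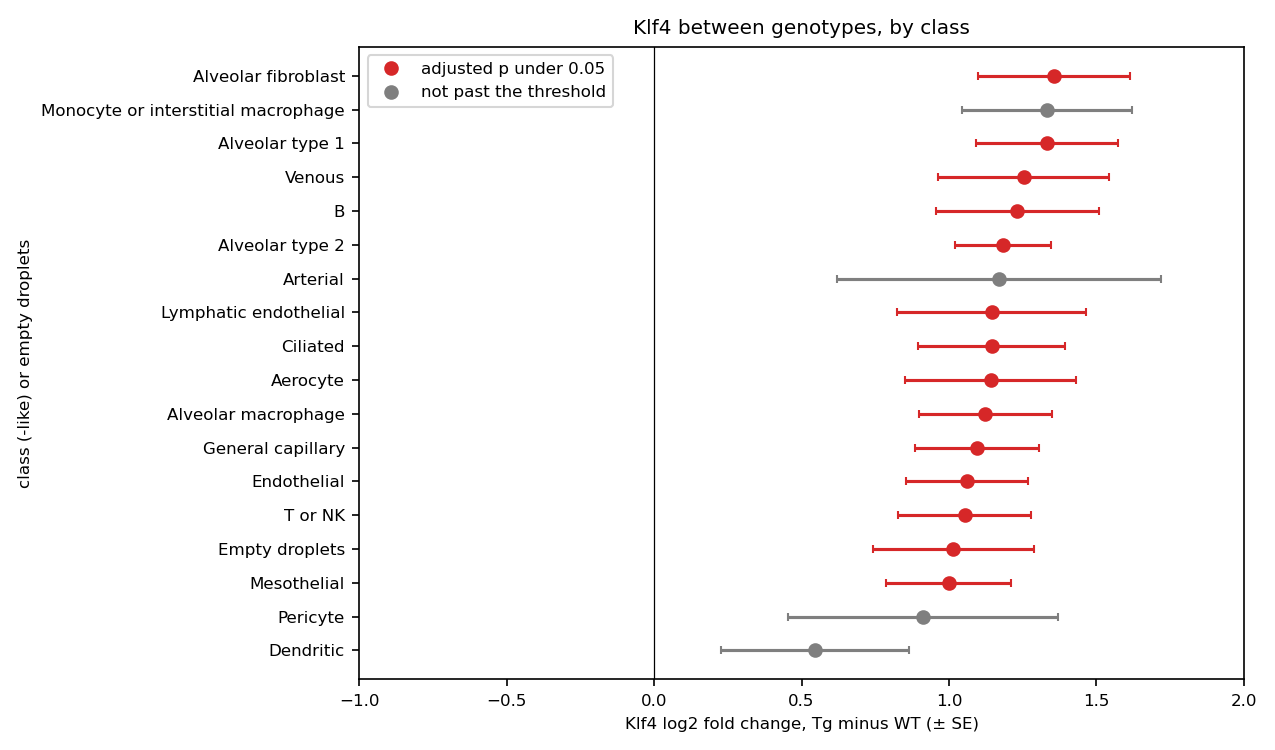
Difference of Klf4 between the genotypes (log2, Tg minus WT, bars are SE) in each class, endothelial group and in empty droplets, 2 mice per genotype, in red where adjusted p is under 0.05. Points run from 0.55 in dendritic to 1.36 in alveolar fibroblast nuclei, with empty droplets at 1.01.

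Klf2 (chromosome 8, 72319033 to 72321656, + strand), the other flow-responsive factor, stood at 126 and 186 CPM in WT and 170 and 123 CPM in Tg endothelial-like nuclei. The genotypes overlapped, with a log2 difference of −0.04 (SE 0.26, adjusted p = 0.93, edgeR). The level was 0.79 to 1.18 times that in empty droplets and exceeded it in all 4 mice in no class.

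Foxf1 (chromosome 8, 121084386 to 121088144, + strand), on which the lung's capillary network depends, stood at 38.3 and 33.2 CPM in WT and 42.3 and 43.2 CPM in Tg endothelial-like nuclei, 1.60 to 2.45 times the empty droplets. The genotypes did not overlap, but the log2 difference of 0.28 (SE 0.23) did not pass (adjusted p = 0.42, edgeR). General capillaries (29.0 to 43.9 CPM) and aerocytes (32.8 to 58.8 CPM) overlapped, and they were the only endothelial groups above the empty droplets in all 4 mice.

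In empty droplets Foxf1 was at 15.7 and 16.2 CPM in WT and 26.4 and 26.7 CPM in Tg, a log2 difference of 1.00 (SE 0.26, adjusted p = 0.037, edgeR). Without the first Tg mouse it was 0.84 (adjusted p = 0.25, edgeR), and it did not pass without the second Tg mouse (1.11, adjusted p = 0.080, edgeR) or the first WT mouse (0.97, adjusted p = 0.071, edgeR) either.

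Nr2f2 (chromosome 7, 70351944 to 70366735, − strand) was higher in venous nuclei than in the other groups of blood ECs. It stood there at 179 and 204 CPM in WT and 161 and 164 CPM in Tg, 2.26 to 3.10 times the empty droplets. The genotypes did not overlap there, but the log2 difference of −0.10 (SE 0.26) did not pass (adjusted p = 0.86, edgeR). General capillaries (36.5 to 61.6 CPM), aerocytes (26.0 to 44.1 CPM) and the arterial group (23.1 to 33.9 CPM) lay below the empty droplets in every mouse. Lymphatic nuclei had 254 to 294 CPM, alveolar fibroblasts 216 to 291 CPM and pericytes 137 to 200 CPM. Over all endothelial-like nuclei it was at 72.7 and 51.2 CPM in WT and 68.6 and 66.2 CPM in Tg, a log2 difference of 0.14 (SE 0.23, adjusted p = 0.70, edgeR).

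Tbx2 (chromosome 11, 85832551 to 85841948, + strand) was higher in aerocytes than in the other endothelial groups. It stood there at 282 and 302 CPM in WT and 356 and 255 CPM in Tg, 7.30 to 14.4 times the empty droplets. General capillaries had 13.4 to 20.4 CPM, venous nuclei 6.87 to 17.5 CPM and the arterial group 0 to 46.2 CPM, from at most 3 UMIs per mouse. Pericytes (187 to 326 CPM) overlapped the aerocytes, alveolar fibroblasts (226 to 251 CPM) lay just below their lowest mouse, and mesothelial nuclei had 24.4 to 50.6 CPM.

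Over all endothelial-like nuclei Tbx2 was at 52.0 and 60.7 CPM in WT and 70.4 and 63.0 CPM in Tg. The genotypes did not overlap, but the log2 difference of 0.28 (SE 0.21) did not pass (adjusted p = 0.38, edgeR). Aerocytes made up 13.1% and 15.6% of the endothelial-like nuclei in WT and 15.5% and 17.2% in Tg, which overlap. Within aerocytes the genotypes overlapped, with a log2 difference of 0.21 (SE 0.27, adjusted p = 0.68, edgeR).

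Of 26 tests of the factors in the 4 endothelial groups, 4 passed, Klf4 in 3 groups and Sox7 in general capillaries. Among all genes tested, 14.9% passed in general capillaries, 10.3% in venous, 9.74% in aerocyte and 6.93% in arterial nuclei, so that 4 of 26 is near the background. Levels of a factor between classes and groups are a description with no test, since these were built from the same nuclei.

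For each factor the genes of the most similar pattern were found by Pearson's r of mean log2(CPM + 5) over 16 classes and groups, among 15604 genes. The points share libraries and free RNA, and Shank3, Emcn and Sema3g also served as markers. Erg was nearest to Shank3, Fgd5 and Nova2 (r = 0.98 each), Sox7 to Pcdh17 (0.98), Emcn (0.97) and Dipk2b (0.97), and Sox17 to Sema3g (0.99), Lrrc3b (0.95) and Kif26a (0.94). Tbx2 was nearest to Egflam (0.96), 2610027K06Rik (0.90) and Carmn (0.89), and Nr2f2 to B130024G19Rik (0.96), Cyp20a1 (0.90) and Pygm (0.89).

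Foxf1 was nearest to Ccdc85a (0.96), Fendrr (0.93), a long noncoding RNA beside it in the genome, and Prx (0.93). Klf2 and Klf4 were each nearest to the other (0.93), followed by Ace (0.90) and S1pr1 (0.90) for Klf2 and by Pttg1ip (0.92) and Lgals9 (0.90) for Klf4. Fli1 was nearest to Gm27201 (0.92), Gnai2 (0.92) and Usp7 (0.91), and Sox18, at its few UMIs, to Plat (0.89), Sema3g (0.88) and Arl15 (0.86).

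Of 33 other endothelial transcription factors tested in endothelial-like nuclei, 2 rose, 2 fell and 29 did not pass, where 14.6% of all genes passed, so that this count is near the background, and their median log2 difference was −0.0030 against 0.02 for all genes. Hey2, a Notch target, was higher by 2.78 (SE 0.73, adjusted p = 0.043, edgeR), at 1.32 and 1.13 CPM in WT and 12.7 and 4.88 CPM in Tg, and Klf10 by 1.07 (adjusted p = 0.036, edgeR). The WT endothelial-like nuclei held 2269779 and 1777962 UMIs of all genes, so that the WT levels of Hey2 rest on very few UMIs. Mecom, a factor of arterial endothelium and blood stem cells, fell by 1.16 (SE 0.21, adjusted p = 0.016, edgeR), from 2436 and 2057 CPM in WT to 938 and 1028 CPM in Tg, and Foxo3 fell by 0.80 (adjusted p = 0.027, edgeR). None of these 4 passed without the first Tg mouse, at 1.93 for Hey2 (adjusted p = 0.34), 1.13 for Klf10 (adjusted p = 0.15), −1.13 for Mecom (adjusted p = 0.116) and −0.75 for Foxo3 (adjusted p = 0.18), by edgeR. Klf10 and Foxo3 did not pass without the second Tg mouse either, nor Klf10 without the first WT mouse. With free RNA subtracted the difference of Mecom was 0.09 (adjusted p = 0.85, edgeR), and its fall was thus not seen. None of the 4 passed with mixed nuclei kept, classes by marker UMIs alone or nuclei of at least 3000 UMIs. In the first 2 of these settings Hey2 stood at 1.24 and 1.58 (adjusted p = 0.21 and 0.19, edgeR), and Mecom at −0.29 and −0.34 (adjusted p = 0.47 and 0.42, edgeR). With DESeq2 Hey2 (adjusted p = 0.084) and Klf10 (adjusted p = 0.076) did not pass. In empty droplets the log2 difference was 0.76 for Hey2 (adjusted p = 0.25), 0.63 for Klf10 (adjusted p = 0.105), −1.59 for Mecom (adjusted p = 0.061) and −1.30 for Foxo3 (adjusted p = 0.020), by edgeR.

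Of 20 endothelial effector genes, 3 rose, where 9.84% of all genes passed as higher, and 17 did not pass, with a median log2 difference of 0.44 against 0.02 for all genes. They were Icam2 (2.22, adjusted p = 0.022), Ramp2, a receptor subunit for adrenomedullin (1.91, adjusted p = 0.014), and the tight junction gene Cldn5 (1.07, adjusted p = 0.018), by edgeR. In empty droplets the median was 0.73, with Icam2 at 2.35 (adjusted p = 0.026), Ramp2 at 2.104 (adjusted p = 0.027) and Cldn5 at 0.94 (adjusted p = 0.073), by edgeR. Cdh5, Pecam1, Tek, Tie1, Kdr, Flt1, Eng, Egfl7, Emcn, Ptprb and Calcrl of this list also served as EC markers. The median in nuclei is thus not independent of how the nuclei were named. Icam2, Ramp2 and Cldn5 were not markers. None of the 3 passed without the first Tg mouse, at 1.57 for Icam2 (adjusted p = 0.127), 1.33 for Ramp2 (adjusted p = 0.059) and 0.88 for Cldn5 (adjusted p = 0.129), by edgeR.

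Of 10 flow-responsive genes, 2 rose against the same 9.84% of all genes, a count near the background, the water channel Aqp1 (2.00, adjusted p = 0.0072, edgeR) and Slc9a3r2 (1.31, adjusted p = 0.0084, edgeR), and both were also higher in empty droplets, by 2.56 and 1.65 (adjusted p = 0.018 each, edgeR). The median of the flow-responsive genes was 0.52 in endothelial-like nuclei and 0.50 in empty droplets. Aqp1 still passed without the first Tg mouse, at 1.83 (adjusted p = 0.042, edgeR), and Slc9a3r2 then stood at 1.21 (adjusted p = 0.058, edgeR).

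Of 16 arterial genes, 3 rose, where 9.84% of all genes passed as higher, and 13 did not pass: Hey2, Gja4 (1.87, adjusted p = 0.031, edgeR) and Fbln5 (1.04, adjusted p = 0.047, edgeR), with empty droplets at 1.75 for Gja4 (adjusted p = 0.059, edgeR) and 1.46 for Fbln5 (adjusted p = 0.018, edgeR). Gja4 stood at 1.71 (adjusted p = 0.21, edgeR) and Fbln5 at 0.74 (adjusted p = 0.27, edgeR) without the first Tg mouse. Gja4 also did not pass without the first WT or the second Tg mouse, nor Fbln5 without the second WT mouse. The median log2 difference of the arterial genes was 0.35 over all endothelial-like nuclei, 0.15 over the 12 that could be tested in general capillaries, and 0.50 in empty droplets. Gja5, Gja4, Bmx, Dkk2, Fbln5, Efnb2, Sema3g and Hey1 of this list also served as markers of the arterial group. The arterial group made up 3.01% and 2.05% of the endothelial-like nuclei in WT and 6.39% and 3.62% in Tg, and its part in these differences was not tested.

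Of 10 venous and lymphatic genes none passed by edgeR, where 14.6% of all genes passed, or by DESeq2, where 9.43% did. By edgeR 2 had an unadjusted p under 0.05, as did 4287 of all 12900 genes, so that this count is not above the background. The median log2 difference was 0.12, against 0.02 for all genes and 0.16 in empty droplets. The log2 difference was 0.01 for Vwf, −0.49 for Nrp2, −0.66 for Slc6a2 and 0.36 for Ephb4. Slc6a2, Vwf, Ackr1, Selp and Amigo2 of this list also served as venous markers. Prox1, Lyve1 and Mmrn1 served as markers of the lymphatic class, whose clusters were kept apart. Over the 6 genes of the list that could be tested in general capillaries the median was 0.34, against 0.02 for all genes there. Of these 6, 1 fell, Nrp2, by 0.77 (adjusted p = 0.041, edgeR), where 565 of 11489 genes passed as lower. Nrp2 did not pass there without the first Tg mouse (−0.59, adjusted p = 0.24), the first WT mouse (−0.81, adjusted p = 0.12) or the second WT mouse (−0.74, adjusted p = 0.104), and stood at 0.27 with free RNA subtracted (adjusted p = 0.86), by edgeR.

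Of 11 immediate early genes, which respond to handling of tissue, 1 passed, Jun (1.41, SE 0.30, adjusted p = 0.025, edgeR), which was also higher in empty droplets by 1.71 (adjusted p = 0.018, edgeR). It stood at 1.01 without the first Tg mouse (adjusted p = 0.15, edgeR). The median of the immediate early genes was −0.0079 in endothelial-like nuclei and 0.35 in empty droplets. Of the 12 list genes that passed in endothelial-like nuclei, 1 of 12 passed without the first Tg mouse, 1 of 11 with free RNA subtracted, 2 of 12 with mixed nuclei kept, 4 of 11 in nuclei of at least 3000 UMIs, 5 of 12 with classes by marker UMIs alone and 8 of 12 with DESeq2. The share of all genes that passed in these settings was 1.45%, 1.93%, 6.01%, 4.70%, 7.38% and 9.43%, against 14.6% in the fit reported here. Aqp1 passed without the first Tg mouse and with free RNA subtracted, at 1.66 in the latter (adjusted p = 0.037, edgeR).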

How the data were processed

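For each mouse the authors deposited unfiltered UMI counts of 32285 genes per barcode (Cell Ranger 6.1.1, mm10, per the labels, with introns counted per the study's methods). The 10 factors and the gene lists were chosen with earlier results of these data known. Barcodes of at least 1500 UMIs, 200 genes and at most 5% mitochondrial UMIs were clustered in each mouse (2000 variable genes, 30 components, 20 neighbours, Leiden resolution 1), and clusters were named from markers. Clusters close to the empty droplets and nuclei better described with a second lineage's profile were set aside. No doublet caller was run apart from this.

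These settings were chosen after the clusters and their marker names had been seen, and before any factor was tested between genotypes: 3 methods of assignment, 2 cuts for empty clusters, 2 for mixed nuclei (10 and 20) and 3 subtype resolutions (0.3, 0.5 and 1) were tried. Tbx2 was then already visible among the leading genes of the aerocyte cluster, although the factors took no part in clustering. The settings kept were a cut of 20 and a resolution of 0.3, and those not kept for mixed nuclei and subtypes are alternatives added after seeing the data, as is the comparison with empty droplets.

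UMIs were summed per mouse and class with at least 10 nuclei in every mouse and compared with edgeR 4.0.16 (TMM, minimum count 10, quasi-likelihood test, Benjamini-Hochberg, threshold 0.05), with DESeq2 1.42.0 as an alternative. The 10 factors, their 3 nearest genes and up to 4 genes of each list were named by rule. Tested on simulated endothelial counts of 12900 genes, edgeR recovered 91% of 200 genes changed 4-fold and 16% of those changed 2-fold. Free RNA was estimated from 5 secretory epithelial genes. Exact binomial intervals and counts cover counting error only. With 2 mice against 2, an exact permutation test cannot go below p = 0.33. R 4.3.3 and Python 3.11.15 were used.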

Additional observations from a re-analysis of the deposited data

Results flagged for a closer look

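The change of Fli1 differed between endothelial-like nuclei and empty droplets of the same mice: relative to empty droplets, the Tg minus WT difference in nuclei was 0.92 higher on the log2 scale (adjusted p = 0.0028, edgeR's interaction of class and genotype, chosen after seeing the data). Fli1 stood at −0.09 in nuclei and at −0.96 in empty droplets, and ciliated (−1.28), alveolar type 2 (−1.12), mesothelial (−0.92) and alveolar type 1 nuclei (−0.74), none past the threshold, lay nearer to the empty droplets. Other classes above the empty droplets in every mouse lay nearer to the endothelial-like nuclei, none past the threshold. Fli1 stood at 0.43 in dendritic, 0.31 in pericyte, 0.21 in B, −0.01 in T or NK and −0.01 in lymphatic nuclei. It stood at −0.23 in monocyte or interstitial macrophage and −0.26 in alveolar macrophage nuclei. Alveolar fibroblasts, not above in every mouse, were at −0.45. The interaction was not tested in these classes. The cause was not tested.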

How the results depend on the processing

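The number of genes tested differs between settings. For endothelial-like nuclei it was 12900 in the fit reported here and 21518 with no filter, where 14.6% and 15.1% passed. In endothelial-like nuclei 1889 genes were called, against 1203 with DESeq2, 3248 with no filter, 191 with free RNA subtracted, 1056 with classes by marker UMIs alone, 883 with mixed nuclei kept and 482 at 3000 UMIs per nucleus. In general capillaries (1712 calls) these were 948, 2775, 155, 936, 806 and 489, with 1134 and 582 at subtype resolutions 0.5 and 1. In aerocytes (623) they were 243 with DESeq2, 969 with no filter, 45 with free RNA subtracted and 201 at 3000 UMIs, and in venous nuclei (714) 209 with DESeq2, 49 with free RNA subtracted and 181 at 3000 UMIs. In the arterial group (175) they were 64 with DESeq2, 107 by marker UMIs and 0 by edgeR with free RNA subtracted, where 98 genes had an unadjusted p under 0.05. At resolution 1 the arterial name also covered a cluster of 320 nuclei with 4 of 10 arterial markers. Calls there were 523 of 6373 genes tested, against 175 of 2525. Over the other classes (13096) they were 26326 with no filter, 963 with free RNA subtracted against 8501 over the same classes, 6047 by marker UMIs against 10958, and 7119 at 3000 UMIs against 11951. In empty droplets (3883 of 15180 genes tested) they were 27 at 100 to 250 UMIs, where only 91 genes could be tested. That range held 11110 to 14126 UMIs per mouse.

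With a mouse left out, which leaves 1 mouse assumed to vary like the other genotype, calls ran from 196 to 3202 in endothelial-like nuclei, 598 to 1736 in general capillaries, 439 to 981 in aerocytes, 108 to 291 in the arterial group, 377 to 1058 in venous nuclei, 3692 to 19688 over the other classes and 0 to 4802 in empty droplets. The 196, 377, 3692 and 0 are without the first Tg mouse, and in the last 3232 genes had an unadjusted p under 0.05 by edgeR. The replicate numbers are not said to pair the mice, and same-numbered mice deviated together weakly (r = 0.14 over 12900 genes). With the replicate block 2941 genes were called in endothelial-like nuclei and 2835 in general capillaries.

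Sox7 and Klf4 stayed higher in Tg endothelial-like nuclei in every setting, and the calls lost stand beside them. Other differences there changed sign, none past the threshold, and the causes were not tested. With free RNA subtracted Sox17 was −0.23, Erg −0.41, Foxf1 −0.15 and Tbx2 −0.10. By marker UMIs Erg was −0.32, Nr2f2 −0.021 and Tbx2 −0.086, and with mixed nuclei kept Erg was −0.38 and Tbx2 −0.074. At 3000 UMIs Sox17 was −0.17, Erg −0.14, Klf2 0.16 and Nr2f2 −0.018, and with thinned nuclei Fli1 was 0.046. Erg was −0.033 with DESeq2, −0.018 with RLE factors, −0.015 with the replicate block and −0.038 at a cut of 10 for mixed nuclei. With a mouse left out Sox17 ran from −0.16 to 0.44, Erg from −0.25 to 0.23, Fli1 from −0.20 to 0.018, Klf2 from −0.33 to 0.23 and Nr2f2 from −0.10 to 0.45.

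Over all classes and groups, 113 tests of a factor did not pass. Their 1428 values under the alternatives changed sign 226 times and passed the threshold 30 times, in 10 of these tests, most often for Fli1 in alveolar type 2 nuclei (9 alternatives) and Klf4 in monocyte or interstitial macrophage nuclei (5).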
